A study of Homo sapiens with 4 samples.

Results

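The E2F transcription factors and the pocket proteins that hold them in check were read in the TOV21G line. All 10 genes listed for the family (E2F1, E2F2, E2F3, E2F4, E2F5, E2F7, E2F8, RB1, RBL1 and RBL2) were found by symbol among the 26255 genes of the deposited table, each on 1 row and above 0 in every library. TOV21G is an established human line from an ovarian clear cell carcinoma. Poly(A)-selected RNA was sequenced from 4 cultures, 1 per group: a control without drugs, As2O3 (arsenic trioxide) at 1 µM, GSK458 (an inhibitor of PI3K and mTOR) at 0.1 µM, and As2O3 at 1 µM with GSK458 at 0.1 µM. The drugs were given for 48 h, and the sources used here give no time for the control culture. Because each group held 1 library, no value below has a replicate error and no test was run. Each difference describes these libraries.

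E2F factors bind promoters of genes needed for DNA replication and division. E2F1, E2F2 and E2F3 act as activators, and E2F4 and E2F5 mainly as repressors together with pocket proteins. The atypical E2F7 and E2F8 repress without a DP partner (TFDP1 or TFDP2) or a pocket protein. The pocket proteins are RB1 (the retinoblastoma protein), RBL1 (p107) and RBL2 (p130), which bind E2Fs until cyclin-dependent kinases phosphorylate them. RBL2 with E2F4 or E2F5 and the MuvB proteins forms the DREAM complex, which is known for repressing cell cycle genes in resting cells. The genes of several members, E2F1, E2F2, E2F7, E2F8 and RBL1 among them, are themselves known as E2F targets. That list is not complete, and whether being a target bears on the differences below was not tested.

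Promoter sequences are shown because several members are known targets of their own family. Each promoter of the RefSeq table (GRCh38.p14, 250 bases before to 50 after a start) was searched on both strands for the E2F letters TTTCCCGC, TTTCGCGC, TTTGCCGC and TTTGGCGC. The table had entries for 8 of the 10 members, and none was matched for E2F5 and E2F8. Below are the 100 bases before the start, 5′ to 3′ on the strand of the gene, with matches in capitals, for E2F1 (chr20:33686386-33686485, minus strand), E2F2 (chr1:23531234-23531333, minus), RBL1 (chr20:37095998-37096097, minus), E2F3 (chr6:20401779-20401878, plus) and, as a window without a match, E2F7 (chr12:77065570-77065669, minus).
E2F1: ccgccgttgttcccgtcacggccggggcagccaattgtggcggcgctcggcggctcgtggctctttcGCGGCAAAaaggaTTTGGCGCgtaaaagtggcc
E2F2: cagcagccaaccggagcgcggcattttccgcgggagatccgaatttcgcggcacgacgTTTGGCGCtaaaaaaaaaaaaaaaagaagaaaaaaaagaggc
RBL1: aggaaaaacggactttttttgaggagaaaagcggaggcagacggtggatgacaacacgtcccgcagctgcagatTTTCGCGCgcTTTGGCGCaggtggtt
E2F3: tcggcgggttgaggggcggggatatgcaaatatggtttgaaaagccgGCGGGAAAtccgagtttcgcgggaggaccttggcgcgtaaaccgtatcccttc
E2F7: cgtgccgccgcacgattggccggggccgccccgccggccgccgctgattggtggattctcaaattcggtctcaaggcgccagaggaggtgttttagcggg

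E2F1 and RBL1 each held 2 matches, and E2F2 and E2F3 held 1. TTTGGCGC began 20 bases before the start in E2F1, 42 in E2F2 and 16 in RBL1. The matches of E2F1 written GCGGCAAA and of E2F3 written GCGGGAAA are the reverse complements of TTTGCCGC and TTTCCCGC. No match lay in the windows of E2F4, E2F7 or RBL2, nor in the other of the 2 entries of E2F3. The RB1 entry of the table lies 173 kb inside the gene, at another start, and is not considered. Of all 35116 promoter entries, 1164 (3.31%) held at least 1 match. These letters are a description of the windows and do not show binding.

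Values are FPKM, by name the fragments per kilobase of transcript for each 1000000 fragments mapped, so levels of different genes can be set side by side. As deposited they stood close to median-of-ratios scaling between libraries, which is described with the processing below. In the control library the order from high to low was RB1 (20.5 FPKM), E2F4 (19.05), E2F5 (17.2), RBL2 (13.9), E2F3 (9.44), E2F1 (8.03), E2F2 (5.79), RBL1 (4.45), E2F8 (3.28) and E2F7 (2.92). Without replicates it cannot be said which neighbours in this order differ beyond their spread. The repressors E2F4 and E2F5 thus stood above each activator, and the pocket proteins RB1 and RBL2 stood above RBL1. With GSK458 the 4 highest were RB1, E2F5, RBL2 and E2F4, and E2F1, E2F2 and E2F8 were the lowest at under 1 FPKM.

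**Figure D1:**
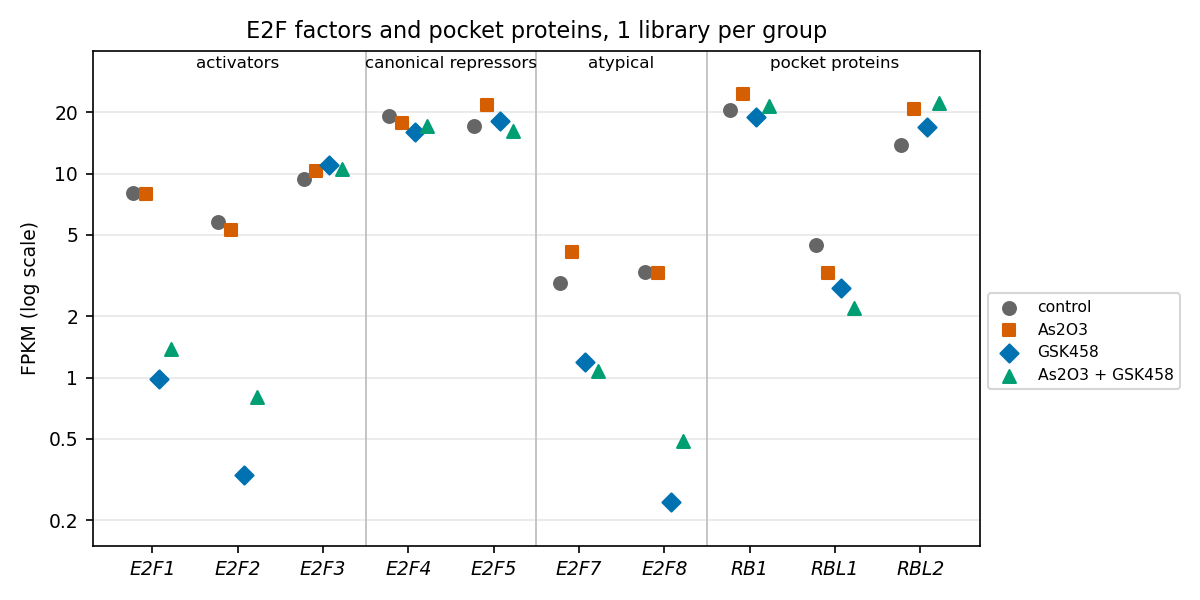
FPKM of the 10 members (log scale) in the control, As2O3, GSK458 and As2O3 + GSK458 libraries, 1 point per library. E2F1, E2F2, E2F7 and E2F8 are lower in both GSK458-treated libraries than in the other two, while E2F3, E2F4, E2F5, RB1 and RBL2 stay between 9.44 and 24.4 FPKM.

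Differences were computed on the log2(FPKM + 1) scale, which understates changes of low genes, and were set beside those of the 12260 genes whose mean was 1 FPKM or more. All 10 members passed that mean. A gene is counted as 2-fold apart at a log2 difference of at least 1 in size.

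The activators divided into a pair that was low wherever GSK458 was given and E2F3, which was not. E2F1, an activator that can drive cells into S phase, stood at 8.03 FPKM without drug, 7.92 with As2O3, 0.98 under GSK458 and 1.37 with both drugs. The 2 libraries without GSK458 were close to each other and both of those with it were far below them. In bulk RNA, fewer cells in a cycle phase and less RNA per cell cannot be told apart. The log2(FPKM + 1) difference of E2F1 was −2.19 between GSK458 and control and −1.91 between both drugs and As2O3. By the plain FPKM ratio, without the added 1, E2F1 was 8.20-fold lower with GSK458 than in the control.

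E2F2, a close relative of E2F1, stood at 5.79 FPKM without drug, 5.28 with As2O3, 0.33 under GSK458 and 0.81 with both. It had the largest FPKM ratio among the members, 17.5-fold lower with GSK458 than in the control, but that ratio rests on 0.33 FPKM. Its log2(FPKM + 1) difference was −2.35, and −1.02 with 5 FPKM added instead of 1. Between both drugs and As2O3 the log2 difference was −1.80. E2F2 was lowest with GSK458 alone, as E2F1 was.

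E2F3, the third activator, stood at 9.44, 10.3, 11.0 and 10.5 FPKM without drug, with As2O3, under GSK458 and with both. Its lowest value was that of the control, and its log2 difference with GSK458 was 0.20. GENCODE v29 lists 2 pseudogenes named for E2F3, and how reads that map to several places were treated is not given, so its level is uncertain. Of its 2 promoter entries 1 holds an E2F match, and the single entries of E2F1 and E2F2 each hold at least 1.

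The canonical repressors differed little between libraries. E2F4, the main partner of RBL2 in resting cells, stood at 19.05 FPKM without drug, 17.7 with As2O3, 16.0 under GSK458 and 17.2 with both, and GENCODE v29 lists 1 pseudogene for it. E2F5 stood at 17.2, 21.6, 18.2 and 16.2 FPKM in that order, highest with As2O3. None of their log2 differences in the 5 comparisons of libraries was larger in size than the −0.40 of E2F5 between both drugs and As2O3.

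The atypical repressors were low with GSK458 too, E2F8 more so than E2F7. E2F8 stood at 3.28 FPKM without drug, 3.26 with As2O3, 0.24 under GSK458 and 0.49 with both. Its FPKM was 13.4-fold lower with GSK458 than in the control, a ratio that rests on 0.24 FPKM. The log2(FPKM + 1) difference was −1.78, and −0.66 with 5 FPKM added instead of 1. Between both drugs and As2O3 the log2(FPKM + 1) difference was −1.52. E2F7 stood at 2.92, 4.14, 1.19 and 1.07 FPKM in that order. E2F7 was thus highest with As2O3 alone and lowest in the combination.

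The log2 difference of E2F7 with GSK458 was −0.84 and that of both drugs against control was −0.92, short of 2-fold on this scale. Its FPKM ratios were 2.45-fold and 2.72-fold lower. Against As2O3 alone the combination had a log2 difference of −1.31. In the control E2F7 made up 47.1% of the FPKM of the atypical pair, and with GSK458 83.0%.

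The pocket proteins went separate ways. RBL1, a pocket protein known as an E2F target, stood at 4.45 FPKM without drug, 3.25 with As2O3, 2.75 under GSK458 and 2.18 with both. The control was the highest library and the combination the lowest, 2.04-fold lower in FPKM with a log2 difference of −0.78. No RBL1 difference was 2-fold on the log2(FPKM + 1) scale.

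RBL2, the pocket protein that accumulates in resting cells, stood at 13.9 FPKM without drug, 20.7 with As2O3, 16.8 under GSK458 and 22.3 with both. Its control value was the lowest, and the 2 libraries with As2O3 were the highest. The log2 differences from the control were 0.54, 0.26 and 0.65 for As2O3, GSK458 and both. These lay at percentiles 91.4, 74.7 and 91.9 of all genes that passed.

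RB1 stood at 20.5, 24.4, 18.9 and 21.5 FPKM without drug, with As2O3, under GSK458 and with both. Its log2 differences from the control were 0.24, −0.11 and 0.07, within the middle of the distribution of all genes with percentiles of 74.4, 39.5 and 57.3. RB1 was the most abundant pocket protein transcript in 3 of the 4 libraries, and RBL2 was in the combination.

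The ratio of RBL2 to RBL1 was 3.11 in the control, 6.36 with As2O3, 6.13 under GSK458 and 10.2 with both. It was thus higher with each drug and highest with both. Exons of RBL2 overlap those of AKTIP on the opposite strand, exons of E2F5 overlap those of C8orf59, and exons of RBL1 and E2F8 each overlap an antisense gene (GENCODE v29). The kit keeps the strand, but whether the quantification used it is not given, so these 4 levels carry that uncertainty.

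**Figure D2:**
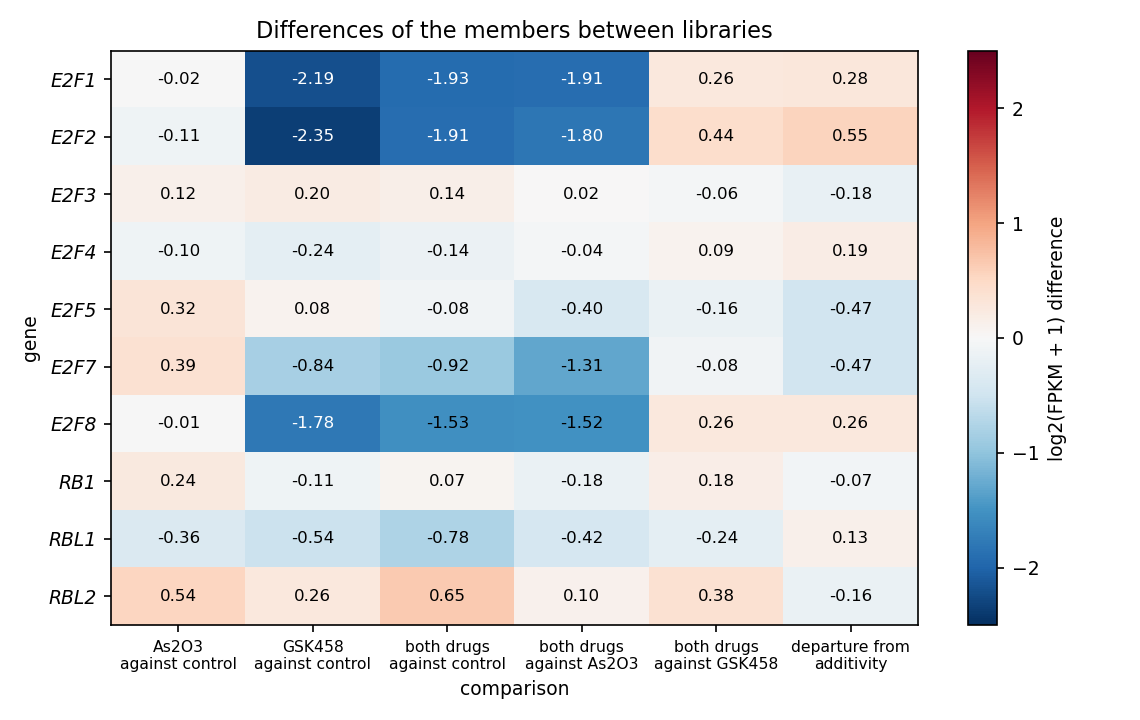
Log2(FPKM + 1) differences of the 10 members (rows) in 5 comparisons of libraries and the departure from additivity (columns), with the value in each cell. The 3 columns in which GSK458 is added hold the lowest values, down to −2.35 for E2F2, and the As2O3 column ranges from −0.36 for RBL1 to 0.54 for RBL2.

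Arsenic alone was set against the untreated culture. None of the 10 members was 2-fold apart, where 2.07% of all genes were 2-fold higher and 1.41% lower. Of the members 5 were higher and 5 lower, with a median of 0.06 against 0.01 over all genes that passed. RBL2 (0.54), E2F7 (0.39) and E2F5 (0.32) were the highest and RBL1 (−0.36) the lowest. E2F1 and E2F8 differed by −0.02 and −0.01. After rescaling of every library to the mean of the 4 sums, 214 of all genes were 2-fold higher and 221 lower, where 254 and 173 were as deposited.

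GSK458 alone, set against the untreated culture, addresses inhibition of PI3K and mTOR by itself. Of the 10 members 3 were 2-fold lower (E2F1, E2F2 and E2F8) and none higher, beside 3.87% lower and 2.35% higher among all genes. The members' median was −0.39, and that of all genes was −0.01. E2F2, E2F1 and E2F8 lay at percentiles 0.63, 0.84 and 1.43 of all differences, E2F7 at 5.43 and RBL1 at 11.5. The other 5 members lay between percentiles 28.1 and 74.7. With a pseudocount of 5 FPKM E2F8 was short of 2-fold at −0.66, and after rescaling of each library to a sum of 1000000 E2F7 was past it at −1.07. That rescaling also raises each FPKM against the added 1. Rescaled to the mean of the 4 sums, E2F7 stood at −0.91, short of 2-fold.

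The same drug was read again in cells that also received As2O3, from a pair of libraries that shares none with the first. Between the combination and As2O3 alone 4 of 10 members were 2-fold lower (E2F1, E2F2, E2F7 and E2F8) and none higher, beside 4.27% lower and 2.28% higher among all genes. Percentiles were 0.93 for E2F1, 1.15 for E2F2, 1.73 for E2F8 and 2.5 for E2F7. E2F3 (0.02) and RBL2 (0.10) were the 2 members with values above 0. The median was −0.41, against −0.02 for all genes.

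**Figure D3:**
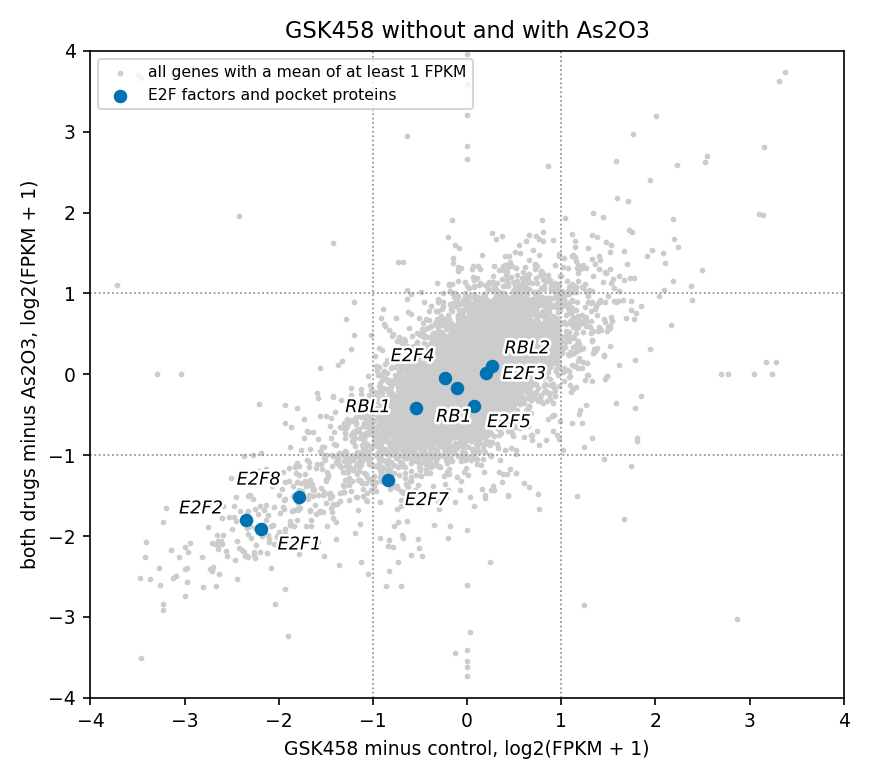
Each point is a gene, with its log2(FPKM + 1) difference between GSK458 and control (x axis) and between both drugs and As2O3 (y axis). Blue points are the 10 members, dotted lines mark 2-fold, and 20 genes lie outside the axes. E2F1, E2F2 and E2F8 lie past 2-fold on both axes (−2.19, −2.35 and −1.78 on x), E2F7 past it on the y axis (−1.31), and the other 6 members inside both.

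Against the control, the combination was 2-fold lower for 3 members (E2F1 at −1.93, E2F2 at −1.91 and E2F8 at −1.53) and higher for none, beside 4.31% lower and 3.25% higher among all genes. RBL2 was the highest member at 0.65, and RBL1 stood at −0.78. With a pseudocount of 5 FPKM E2F1 alone was past 2-fold here, as it was against As2O3, and by plain FPKM ratios 5 members were (E2F7 and RBL1 besides the 3). No share of all genes is given for that pseudocount or for plain ratios, so the shares above are no background for these counts. The comparison of both drugs with the control and those of the single drugs share the control library. The members' median was −0.46 and that of all genes −0.01.

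Adding As2O3 to GSK458 moved no member by 2-fold, where 0.644% of all genes were 2-fold higher and 0.318% lower. The largest differences were those of E2F2 (0.44), RBL2 (0.38), E2F1 and E2F8 (0.26 each). E2F2 stood at 0.33 FPKM with GSK458 and 0.81 with both, a ratio of 2.43, and E2F8 at 0.24 and 0.49, a ratio of 1.99. All 4 values lie below 1 FPKM, where the added 1 FPKM weighs most. RBL1 had the lowest difference, −0.24.

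The departure from additivity, the combination minus each single drug plus the control, was 2-fold for no member (1.33% of all genes above, 2.05% below). E2F2 had the highest value at 0.55, at percentile 92.4 of all genes, and E2F5 and E2F7 the lowest at −0.47 each, at percentiles 11.1 and 11.3. With a pseudocount of 0.1 FPKM the E2F2 departure was 1.20, and by the plain FPKM ratio it was 1.42 and that of E2F8 1.00, all past 2-fold. The members' median was 0.03. After rescaling to the mean of the 4 sums, the median departure of all genes moved by 0.13 and the median GSK458 difference by −0.10. The departures past 2-fold were then 260 above and 177 below, where 163 and 251 were counted as deposited.

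Summed by class, the activators stood at 23.3 FPKM without drug, 23.5 with As2O3, 12.3 under GSK458 and 12.7 with both. E2F3 made up 40.6% of that sum in the control and 44.0% with As2O3, but 89.3% with GSK458 and 82.8% with both. The atypical pair summed to 6.20, 7.40, 1.44 and 1.56 FPKM, and E2F4 with E2F5 to 36.2, 39.3, 34.2 and 33.4 FPKM. The pocket proteins summed to 38.8, 48.3, 38.5 and 46.0 FPKM, higher in the 2 libraries with As2O3.

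The ratio of canonical repressor to activator FPKM was therefore 1.56 in the control, 1.67 with As2O3, 2.79 under GSK458 and 2.63 with both. For pocket proteins over activators the ratios were 1.67, 2.05, 3.14 and 3.63. RBL1 made up 11.5% of pocket protein FPKM in the control and 4.74% in the combination, and RBL2 35.7% and 48.5%. The ratio of E2F4 to E2F1 was 2.37 in the control and 16.4 with GSK458.

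**Figure D4:**
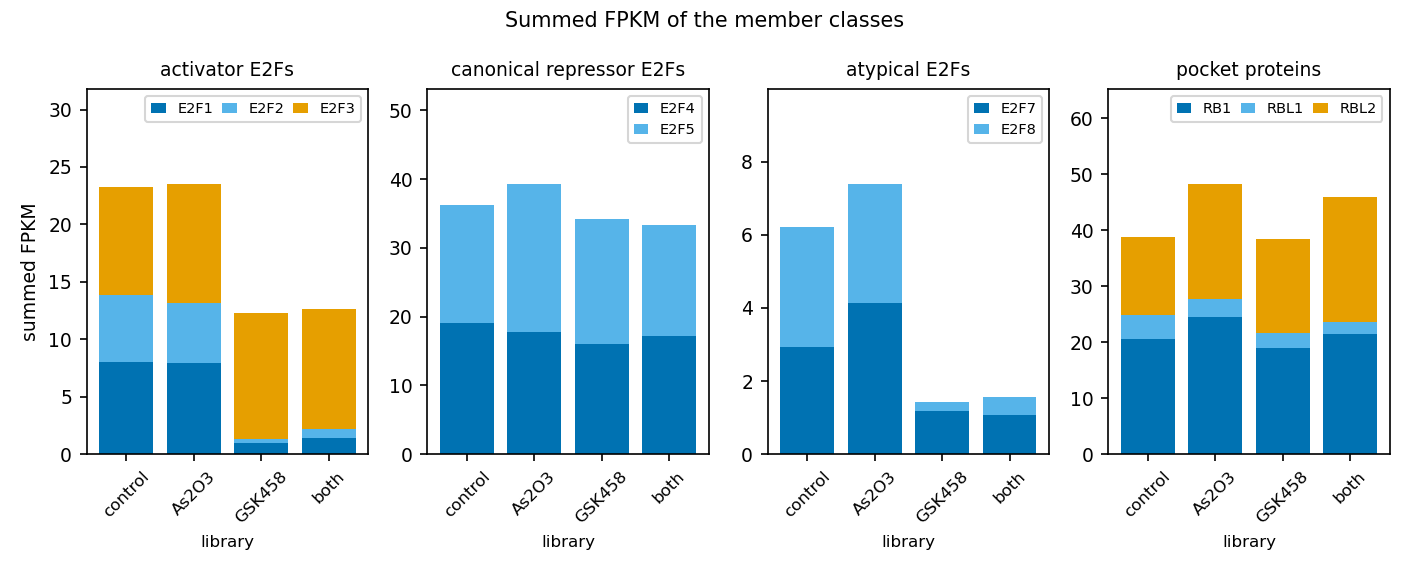
Summed FPKM of each class of members in the 4 libraries, stacked by gene, each panel with its own axis from 0. The activator bar is 23.3 FPKM in the control and 12.3 with GSK458, of which E2F3 is 89.3%, and the pocket protein bars are highest with As2O3 (48.3) and both drugs (46.0).

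Genes most like each member were sought among the 9155 genes whose mean reached 5 FPKM, by the Euclidean distance between centred log2(FPKM + 1) profiles over the 4 libraries. With 4 points a small distance is easily met, and it is given as a description. NUDT1, FANCI and SPC24 were nearest to E2F1, at distances of 0.09, 0.11 and 0.13, and 58 genes lay within 0.5. FANCI, CENPW and RNASEH2A were nearest to E2F2 (0.13, 0.15 and 0.16), with 57 genes within 0.5. DEPDC1B, ACAT2 and CCNF were nearest to E2F8, at 0.06, 0.07 and 0.07, with 98 genes within 0.5.

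Among the members themselves, E2F1 and E2F2 were the closest pair, at 0.14. DDB2, IDI1 and PNP were nearest to E2F7, ITM2C, XPA and PPP1R1A to RBL1, and SERINC5, FNBP4 and TLDC1 to RBL2. The flat profiles of E2F3, E2F4, E2F5 and RB1 had between 5098 and 5814 genes within 0.5, so the nearest ones say little. They were SMAP1, EIF3J and ZC4H2 for E2F3, MARCH2, USP48 and ACOT8 for E2F4, MYL12A, FYTTD1 and SH3BP5 for E2F5, and KIF1B, RGS14 and MSN for RB1.

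No dimer partner of the E2Fs was 2-fold apart in any comparison. TFDP1, the main partner (DP1), stood at 41.3 FPKM without drug, 27.3 with As2O3, 27.04 under GSK458 and 25.8 with both, so that all 3 treated libraries were below the control. TFDP2 stood at 20.6, 17.2, 23.1 and 25.7 FPKM, and TFDP3 was listed at 0 in each library. The ratio of TFDP1 to TFDP2 was 2.01 in the control and 1.00 in the combination. E2F6, a repressor that acts without pocket proteins, stood at 8.0, 8.98, 7.04 and 8.10 FPKM.

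Of the 7 MuvB, B-MYB and FOXM1 genes, 2 were 2-fold lower with GSK458 and none higher, beside 3.87% lower among all genes, with a median of −0.38 against −0.01. These were FOXM1, an activator of mitotic genes (19.98 FPKM without drug, 17.97 with As2O3, 1.65 under GSK458 and 5.41 with both), and MYBL2 (B-MYB), which replaces pocket proteins on MuvB in cycling cells (65.6, 60.8, 24.8 and 28.9 FPKM). The MuvB subunits LIN9 (−0.77), LIN52 (−0.38), LIN54 (−0.31), LIN37 (0.01) and the histone chaperone RBBP4 (−0.38) were not 2-fold apart with GSK458. With As2O3 none of the 7 was 2-fold apart.

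Of the 16 cyclins, kinases and inhibitors that act on pocket proteins, 15 passed the mean of 1 FPKM, and CCNE1 and CCNE2 also stand in the list of G1/S targets. With As2O3 3 of the 15 were 2-fold higher, the inhibitors CDKN1A, CDKN1C and CDKN2D, and none lower, beside 2.07% higher and 1.41% lower among all genes. Their median was 0.30, against 0.01 for all genes. CDKN1C (p57) stood at 3.87 FPKM without drug, 12.1 with As2O3, 8.26 under GSK458 and 8.25 with both. CDKN2D (p19) stood at 6.40, 16.8, 7.09 and 8.16 FPKM, and CDKN1A (p21), known as a p53 target, at 79.7, 244, 90.4 and 105 FPKM. All 3 inhibitors were highest in the As2O3 library, and CDKN2D and CDKN1A are named here after their values were seen.

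With GSK458 4 of the 15 were 2-fold lower and none higher, beside 3.87% lower and 2.35% higher among all genes. The lowest were CCNA2 (cyclin A, −2.98), CDKN2C (p18, an inhibitor and known E2F target, 8.60 against 1.41 FPKM) and CCNE2 (cyclin E2, 1.82 against 0.18 FPKM), and the fourth, named after its value was seen, was CDK2 (−1.15). At the other end were CDKN1C (0.93), cyclin D1 (CCND1, 25.3 against 33.7 FPKM) and CDK6 (5.24 against 7.13 FPKM), which phosphorylates pocket proteins with D cyclins. The median was −0.22, against −0.01 for all genes.

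E2F targets of the G1/S transition were lower with GSK458 in 35 of 35 genes, 27 of them 2-fold (3.87% of all genes), with a median of −1.77 against −0.01 for all genes. RRM2, UHRF1 and CDC6 had the lowest differences, at −4.49, −3.23 and −2.81. The differences nearest to 0 were those of CASP8AP2 (−0.07), the licensing factor CDT1 (−0.39) and the histone mRNA binding protein SLBP (−0.44). Between both drugs and As2O3, 25 of the 35 were 2-fold lower (4.27% of all genes), with a median of −1.32 against −0.02. With As2O3 alone 25 of 35 were lower by any amount, where 51.2% of all genes were higher, with a median of −0.14. Of these 35 genes 1 was 2-fold higher (CDT1, 16.0 against 33.9 FPKM) and 1 lower (MCM7, 71.3 against 29.1 FPKM, named after its value was seen).

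In the 21 targets of DREAM and FOXM1 that peak in G2 and mitosis, all were 2-fold lower with GSK458, beside 3.87% of all genes, with a median of −2.65. CDC20 (−3.48), BIRC5 (−3.43) and MKI67 (−3.41) were the lowest, and CENPE (−1.55), CDC25C (−1.71) and CCNB2 (−2.08) the closest to 0. With As2O3 alone 20 of 21 were higher than in the control and none 2-fold, where 51.2% of all genes were higher by any amount. The median was 0.45, against 0.01 for all genes. Adding As2O3 to GSK458 gave a median of 0.82 with 6 of 21 at least 2-fold higher (0.644% of all genes), where the G1/S list had 0.20 and none. The lists were chosen with earlier results of these data known, and their difference was not tested.

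Among genes tied to cell death downstream of E2F1, the GSK458 difference was −0.64 for CASP9, −0.31 for APAF1 and −0.26 for PPP1R13B. TP73 stood between 0.73 and 1.05 FPKM. Of 4 ubiquitin ligase subunits that act on E2Fs, 1 was 2-fold lower with GSK458, beside 3.87% of all genes. This was CCNF (cyclin F), at 15.4 against 3.71 FPKM, while SKP2 (−0.96), FZR1 (−0.33) and CUL1 (−0.20) were not 2-fold apart. The median of the 4 was −0.65, against −0.01 for all genes.

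**Figure D5:**
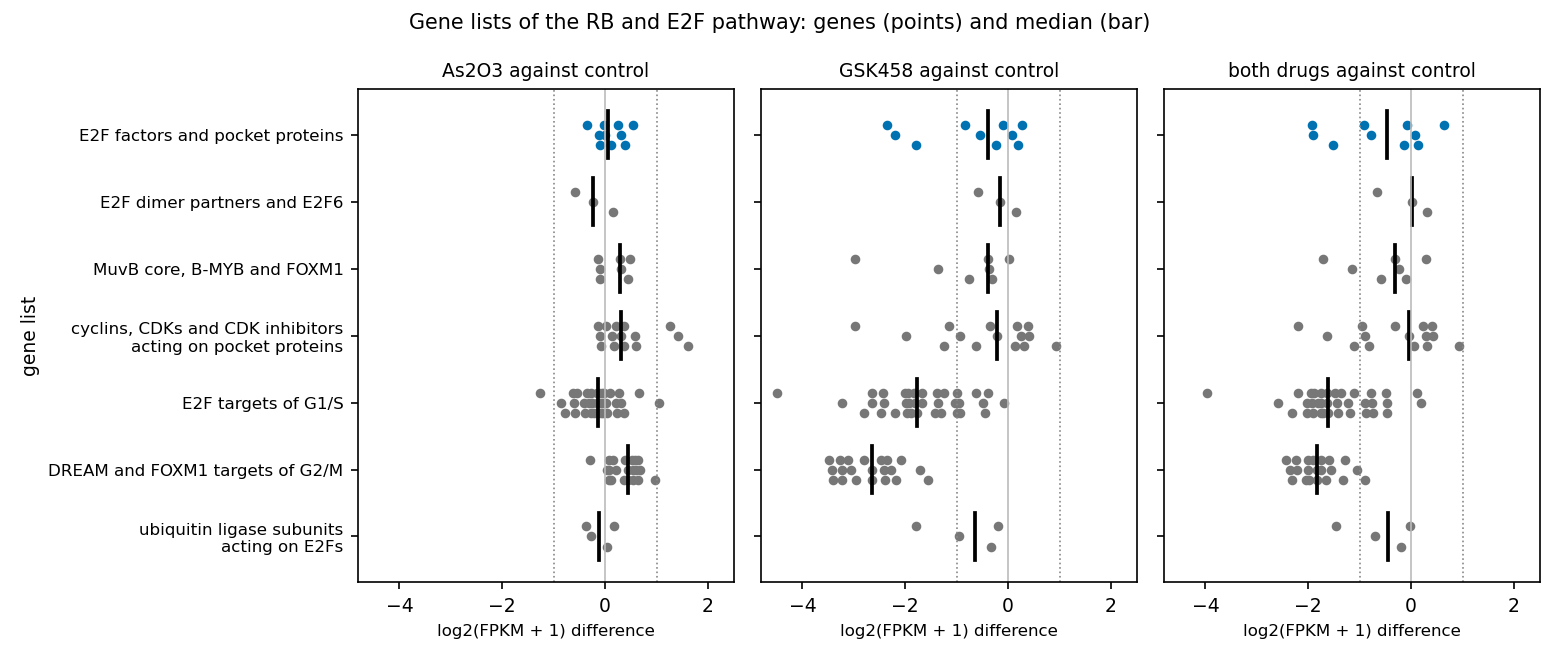
Log2(FPKM + 1) differences from the control with As2O3, GSK458 and both drugs for the 10 members (blue) and 6 lists of related genes (grey), with a bar at each median and dotted lines at 2-fold. With GSK458 the G1/S and G2/M targets have medians of −1.77 and −2.65 and the members −0.39.

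The 4 libraries had FPKM sums of 543975 to 588892. Read counts are not kept in FPKM and the depth is unknown in absolute terms. The spacing of the lowest values gave a relative depth for As2O3, GSK458 and both of 96.3%, 109% and 85.8% of the control's. That spacing also depends on how each library was scaled. E2F1, E2F2 and E2F8 were lowest in the GSK458 library, and any bearing of depth on their levels was not tested. Of the markers of clear cell carcinoma and epithelium, PAX8, ANXA4, KRT8 and KRT18 stood between 83.6 and 310 FPKM, while NAPSA, EPCAM and KRT7 stood between 0.61 and 2.79 FPKM. The 3 serous and 3 endothelial markers were at most 0.134 FPKM, and 5 summed fibroblast markers ranged from 2.32 to 5.98 FPKM with LUM at 0. Of 4 immune markers, summing to 0.91 to 4.32 FPKM, PTPRC and CD3E were at 0 and the lysosomal CD68 was highest, at 4.15 FPKM with As2O3.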

How the data were processed

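The deposited table held FPKM values per gene symbol, which the authors computed from their reads, with 1 library for each of the 4 groups. The submitters' processing notes name Cuffdiff 2.2.1, TopHat2 2.1.1, SAMtools 0.1.18 and Bowtie2 2.2.8 and the build hg19, without roles. The sources used here give no annotation, strand setting or treatment of multi-mapping reads. Columns were matched to groups by sample title. Values were used as deposited, with a pseudocount of 1 FPKM and a filter of a mean of at least 1 FPKM. Median-of-ratios scaling divides each library by the median ratio of its genes to their geometric mean. It moved the all-gene medians by at most 0.004, where equal sums moved them by up to 0.13. The deposited values thus stood close to that scaling. No test was run. The calculation was run on simulated libraries without noise, made from genes of at least 5 FPKM in the control, which checks the arithmetic only. Members and lists were chosen with earlier results of these data known. All members were named. Lists of up to 7 genes were named in full, except that some genes are not reported here, and longer ones by the 3 lowest and 3 highest GSK458 differences. Alternatives were pseudocounts of 0.1 and 5 FPKM, other filters, 3 scalings and a 1.5-fold threshold, and, added after the data were seen, the plain FPKM ratio and rescaling of each library to the mean of the 4 FPKM sums. Promoters came from RefSeq, pseudogenes and overlaps from GENCODE v29. Python 3.11.15, numpy 2.4.6, pandas 2.3.3 and matplotlib 3.10.9 were used.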

Additional observations from a re-analysis of the deposited data

Results flagged for a closer look

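A drug's difference had opposite signs without and with the other drug for 8 pairs of member and drug. The differences between the settings were not tested, since each rests on 4 single libraries. For As2O3, 7 of 10 members changed sign, beside 41.3% of all 12260 genes. The value with GSK458 minus that without it was 0.28 for E2F1 (−0.02 without, 0.26 with), 0.55 for E2F2 (−0.11 and 0.44), 0.26 for E2F8 (−0.01 and 0.26) and 0.19 for E2F4 (−0.10 and 0.09). It was −0.18 for E2F3 (0.12 and −0.06), −0.47 for E2F5 (0.32 and −0.16) and −0.47 for E2F7 (0.39 and −0.08). For GSK458, 1 of 10 members changed sign, E2F5 with 0.08 without and −0.40 with As2O3 (−0.47), beside 28.5% of all genes. After rescaling to equal sums the E2F5 value without As2O3 was −0.03, so the signs no longer differed.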

How the results depend on the processing

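No paired analysis was possible because each group had 1 library. With a pseudocount of 0.1 FPKM, 1 member (E2F2) was 2-fold higher with both drugs than with GSK458, and 1 (E2F2) departed from additivity. With a pseudocount of 5 FPKM only 1 member (E2F1) was 2-fold apart for both drugs against the control and 1 for both against As2O3. A mean of at least 5 FPKM leaves out E2F1, E2F2, E2F7, E2F8 and RBL1, so 0 members were 2-fold apart for GSK458 against control, both against control and both against As2O3. At 1.5-fold, 6 members were apart for both drugs against the control, 5 lower and RBL2 higher. By the plain FPKM ratio, 5 were 2-fold apart there (E2F1, E2F2, E2F7, E2F8 and RBL1), 1 was for both against GSK458 (E2F2), and 2 departed from additivity (E2F2 and E2F8). No share of all genes is given for these pseudocounts, filter, threshold or ratio, so these counts lack that background. Rescaled to a sum of 1000000 or to the mean of the 4 sums, the log2 ratio of summed activators with GSK458 was −1.04, just past 2-fold (−0.92 as deposited). No 2-fold difference of a member changed sign in 420 recomputed values. Smaller ones did in 5, none over 0.08 in size (E2F5 with GSK458 and the departure of RB1 after each rescaling to equal sums, and E2F4 for both against As2O3 with upper-quartile scaling). A pseudocount cannot change the sign of a difference between 2 libraries. The scalings moved the all-gene medians by about 0.13 at most, so a 2-fold difference could hardly change sign. The lowest values lie under 1 FPKM, where the unknown depth limits them.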
